A study of Mus musculus with 40 samples.

Results

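The experiment described here compared the eye region of *Aey69* mutant embryos with that of wild-type embryos at the embryonic stage E12.5. Its members were chosen by sample title and stage, and they were 7 of the 40 samples of the series, 4 mutants (arrays 1, 3, 4 and 5) and 3 controls (arrays 2, 3 and 5). A further control, array 4, was marked as excluded by the submitters and was left out. The study's reason was atypical eye development markers, perhaps from incorrect staging, so the retained controls were selected in part on such markers. The *Aey69* line arose in a mutagenesis screen with *N*-ethyl-*N*-nitrosourea, both genotypes were of the C3HeB/FeJ strain, and the controls were wild-type littermates. The line carries a point mutation in *Hist2h3c1* (named *H3c14* in the current annotation, a gene for histone H3.2). The labels call the replicates biological. They give neither the zygosity of the array mutants nor whether embryos were pooled. Total RNA was amplified and hybridized to bead arrays of Illumina for the mouse, whose probes bind labelled RNA and are each designed for a gene. The comparison asks which transcripts differ at the stage when the lens of the mutant has begun to degenerate. For the course over time, 8 heads of E11.5 (4 mutants and 4 controls) and 6 eyes of E13.5 (3 mutants and 3 controls) were set beside it. A further mutant of E13.5 had been excluded for the same stated reason as array 4, and a further control of E13.5 for quality.

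The lens forms from surface ectoderm that thickens and folds in next to the optic cup. The cells at the back of the lens vesicle then elongate into fibers and fill with crystallins, the main soluble proteins of the lens, while the cells at the front remain as an epithelium. Transcription factors of the large Maf family switch on the crystallin genes, and the sequence TGCTGA is the core of the element that these factors recognize. Around the lens and the optic cup lies the periocular mesenchyme, from which the stroma of the cornea, the sclera and the eyelids arise.

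The promoters of 5 lens genes are shown, 1 each for the α-crystallins, the acidic and basic β-crystallins and the γ-crystallins and that of *Mip*, because these genes fell together in the mutants. The sequences are from RefSeq (build GRCm38.p6), 5′ to 3′ on the strand of the gene, with 250 bases before and 50 bases after the annotated start, and capitals mark TGCTGA or its reverse complement TCAGCA.
Cryaa: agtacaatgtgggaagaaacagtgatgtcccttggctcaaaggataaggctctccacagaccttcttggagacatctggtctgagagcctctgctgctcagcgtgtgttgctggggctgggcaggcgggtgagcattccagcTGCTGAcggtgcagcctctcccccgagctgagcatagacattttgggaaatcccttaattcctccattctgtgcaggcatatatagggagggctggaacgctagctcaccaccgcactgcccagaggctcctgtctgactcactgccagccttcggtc
Cryba1: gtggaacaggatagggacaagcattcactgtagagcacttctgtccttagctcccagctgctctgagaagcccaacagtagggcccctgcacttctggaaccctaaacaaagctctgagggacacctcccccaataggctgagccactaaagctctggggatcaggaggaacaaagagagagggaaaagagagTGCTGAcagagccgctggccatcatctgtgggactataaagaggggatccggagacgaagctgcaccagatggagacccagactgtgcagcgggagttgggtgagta
Crybb1: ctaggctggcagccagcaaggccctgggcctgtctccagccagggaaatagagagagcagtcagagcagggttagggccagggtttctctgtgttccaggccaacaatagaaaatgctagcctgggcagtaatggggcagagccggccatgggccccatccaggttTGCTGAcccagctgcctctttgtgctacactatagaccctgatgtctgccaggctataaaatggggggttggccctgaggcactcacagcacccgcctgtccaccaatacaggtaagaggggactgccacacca
Crygd: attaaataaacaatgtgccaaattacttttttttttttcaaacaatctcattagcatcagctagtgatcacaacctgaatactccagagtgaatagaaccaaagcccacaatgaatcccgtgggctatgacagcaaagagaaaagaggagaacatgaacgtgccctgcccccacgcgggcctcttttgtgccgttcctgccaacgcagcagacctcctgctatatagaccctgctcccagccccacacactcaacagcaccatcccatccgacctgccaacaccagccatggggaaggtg
Mip: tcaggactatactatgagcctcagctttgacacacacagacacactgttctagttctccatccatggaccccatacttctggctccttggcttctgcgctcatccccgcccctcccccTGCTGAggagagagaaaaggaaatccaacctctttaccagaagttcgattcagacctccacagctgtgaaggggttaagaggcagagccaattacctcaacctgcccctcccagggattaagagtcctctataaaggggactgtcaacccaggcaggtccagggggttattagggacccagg
These windows lie at chr17:31677681-31677980 (plus strand) for *Cryaa*, at chr11:77725244-77725543 (minus strand) for *Cryba1*, at chr5:112255570-112255869 (plus strand) for *Crybb1*, at chr1:65063391-65063690 (minus strand) for *Crygd* and at chr10:128225560-128225859 (plus strand) for *Mip*. Both strands were searched for the 6 letters. The windows of *Cryaa*, *Cryba1*, *Crybb1* and *Mip* hold TGCTGA 1 time each, on the strand of the gene, and that of *Crygd* holds neither form. Of the 15 crystallin genes with a promoter in the table, 10 hold the letters, and of all 32851 promoters 19.5% do. The match is a description of letters and was not tested as a binding site.

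Signals are given as log2 of the background-subtracted, quantile-normalized array signal. A probe was called detected on an array when its detection p was under 0.05. The share of probes detected was 49.7% to 51.4% in the 4 mutants and 47.6%, 54.0% and 54.4% in controls 2, 3 and 5. The controls were less alike than the mutants. Over all probes, which are not independent replicates, the mutants correlated among themselves at r = 0.986 to 0.991 and controls 3 and 5 at r = 0.991. Control 2 stood apart from its own group, with r = 0.935 and 0.926 to controls 3 and 5 and r = 0.955 to 0.964 to the mutants. For many results a value without this array is therefore given as well. In the deposited table the column named mutant 1 stands between those of 2 controls, with that named control 5 after it and before the other mutants, and the names were followed. Whether these columns were relabelled was not tested. The 4 lens markers of mutant 1 lay with those of the other mutants and of control 5 with those of the other controls. These markers cannot decide the labels, since they are also the outcome compared. The excluded control, array 4, was low in them too (*Cryba1* 6.04, *Cryaa* 4.93). The label "eye region" was checked against markers. The 4 lens markers were measured (*Cryaa*, *Cryba1*, *Crygd* and *Mip*), with a summed linear signal of 154 to 176 in mutants, against 3263, 2184 and 2413 in controls 2, 3 and 5. Of the 4 optic cup markers with a named probe, *Lhx2* was detected on all 7 arrays, while the probes of *Pax6* and *Six6* were detected on none. Of the 5 pigment epithelium markers, *Dct* and *Pmel* were detected on all 7 arrays, *Mitf* on 1, and *Tyr* and *Tyrp1* on none. The 3 ventral forebrain markers (*Nkx2-1*, *Shh* and *Nkx2-2*) were detected on all 7 arrays. In such bulk samples fewer cells of a type cannot be told apart from less RNA per cell. *H3c14* itself, whose point mutation need not alter its transcript level, had log2 signals of 10.65, 10.90, 10.41 and 10.75 in mutants 1, 3, 4 and 5, against 11.02, 10.97 and 11.04 in controls 2, 3 and 5. All mutants lay below all controls, and the log2 fold change of −0.33 ± 0.15 (SE) did not pass the test (limma, adjusted p = 0.549).

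At a false discovery rate of 10%, 63 of 10463 detected genes were called (0.602%), of which 54 were lower (0.516%) and 9 were higher (0.086%) in mutants. Among the 54 lower genes were 11 crystallin genes and *Mip*. The other 42 (3 of them without a gene name) included *Krt14* and genes of collagens and other matrix proteins. Among the 9 higher genes were *Fgf8* and *Metrn*. At an unadjusted p under 0.05 the test gave 796 lower (7.61%) and 1004 higher genes (9.6%). All 63 calls were also made without control 2, but so were many others, with 1989 lower (19.3%) and 2093 higher genes (20.3%) of 10311. When each of the 7 arrays was left out in turn, 10 genes were called in every fit. These were *Cryba1*, *Cryba2*, *Cryba4*, *Crybb3*, *Cryaa*, *Crygd*, *Mip*, *Krt14*, *Nfib* and *Abca9*. Another 31 genes were called in only 1 of the 7 fits, the one without control 2. With the excluded control added to the controls, 6 genes were called, and no crystallin gene was among them.

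The largest decreases among the called genes were those of crystallin genes. Of 16 crystallin genes with a probe, 13 were detected and 11 of these fell, while 0 rose. All 13 were lower in every mutant than in every control, which was so for 6.75% of all genes. Among the called ones 7 were detected in no mutant and counted as detected through the controls alone. That choice favors lower values in mutants, so the lack of overlap is not independent evidence for them. The median log2 fold change of the 13 was −3.04, or −2.25 with the genes not detected in mutants held at their lower bound, against 0.05 over all detected genes. Without control 2 the median was −2.77.

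*Cryba1*, which encodes βA3/A1-crystallin, had log2 signals of 6.46, 6.32, 6.38 and 6.34 in mutants 1, 3, 4 and 5, against 11.26, 10.58 and 10.71 in controls 2, 3 and 5. The mutants lay close together and far below the controls. Its log2 fold change was −4.48 ± 0.18 (SE), a 22.3-fold decrease (limma, adjusted p = 3.38e-05), and its signal remained above background in all 4 mutants. *Cryba2*, for another acidic β-crystallin, had 4.79, 5.01, 5.38 and 5.09 in mutants 1, 3, 4 and 5, against 10.02, 8.57 and 9.10 in controls 2, 3 and 5. It was detected in 1 of 4 mutants and fell by 4.16 ± 0.32 on the log2 scale (adjusted p = 0.00222). *Cryba4* fell by 3.51 ± 0.26 (adjusted p = 0.00194).

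Among the basic β-crystallins, *Crybb3* had log2 signals of 5.13, 5.57, 5.59 and 5.21 in mutants 1, 3, 4 and 5, against 10.06, 8.28 and 9.02 in controls 2, 3 and 5 (log2 fold change −3.75 ± 0.37, adjusted p = 0.0117). *Crybb1* had 4.60, 4.81, 4.31 and 4.34 in mutants, where no array detected it, against 9.56, 6.77 and 8.22 in controls 2, 3 and 5. It was at least 8.28-fold lower (adjusted p = 0.0617). The controls spread widely for this gene, and control 2 was the highest. *Crybb2*, the basic β-crystallin that rises late in the lens, was not detected.

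*Cryaa*, for the lens chaperone αA-crystallin, had log2 signals of 4.60, 4.65, 4.56 and 4.12 in mutants 1, 3, 4 and 5, against 7.50, 7.94 and 7.77 in controls 2, 3 and 5. No mutant had a signal above background, and the gene was at least 6.06-fold lower (adjusted p = 0.000259). *Cryab*, the related small heat shock protein that many other tissues also make, had 6.0, 5.34, 5.34 and 5.73 in mutants, against 6.21, 6.02 and 6.01 in controls, and did not pass the test (log2 fold change −0.48 ± 0.19, adjusted p = 0.497).

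The γ-crystallins mark fiber cells. *Crygd* had log2 signals of 4.29, 4.33, 4.14 and 4.64 in mutants 1, 3, 4 and 5, against 7.93, 6.71 and 7.53 in controls 2, 3 and 5. No mutant detected *Crygd*, *Crygn*, *Cryga*, *Crygb* or *Crygc*, and all controls did. They were at least 4.77-fold, 3.73-fold, 3.52-fold, 2.23-fold and 1.79-fold lower, in the order named (adjusted p from 0.00807 to 0.0535). *Cryga*, *Crygb*, *Crygc* and *Crygd*, all on chromosome 1, are similar copies, so their probes may share signal. *Crygs* did not pass the test (log2 fold change −0.80 ± 0.15, adjusted p = 0.146), and *Cryge* and *Crygf* were not detected.

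**Figure D1:**
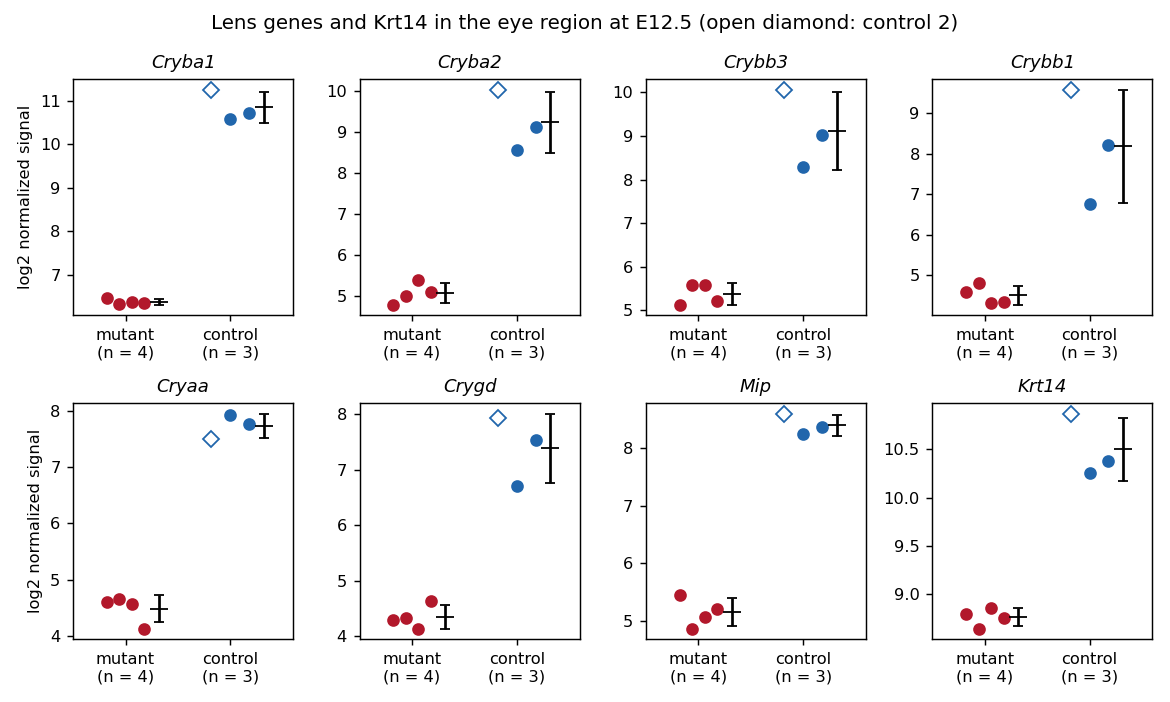
Log2 normalized signal of lens genes and *Krt14* at E12.5 in mutants (red, n = 4) and controls (blue, n = 3). Each point is an array, the open diamond is control 2, and the bars show the mean ± SD. All mutants lay below all controls in each panel, and for *Cryba1* the means were 6.37 and 10.85.

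Among the other lens genes 1 was called. *Mip*, the water channel of fiber cell membranes, had log2 signals of 5.45, 4.86, 5.07 and 5.21 in mutants 1, 3, 4 and 5, against 8.60, 8.24 and 8.36 in controls 2, 3 and 5. It fell by 3.25 ± 0.18 (adjusted p = 0.000259) and was detected in 2 of 4 mutants. Of the 9 detected genes on the list of fiber membrane, filament and maturation genes, *Mip* alone fell, and their median was −0.14, and −0.31 without control 2. *Lim2*, for another fiber membrane protein, was detected in all controls and no mutant, and its decrease of at least 1.39-fold did not pass the test (adjusted p = 0.276).

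None of the 10 detected lens transcription factors passed the test in either direction, and their median was 0.03. At an unadjusted p under 0.05, 1 was higher and 2 were lower (9.6% and 7.61% of all genes were). *Prox1*, which drives the exit of fiber cells from the cell cycle and is also made by neural tissue, had log2 signals of 7.29, 7.43, 7.80 and 7.30 in mutants, against 7.28, 6.68 and 6.84 in controls 2, 3 and 5 (log2 fold change 0.52 ± 0.20, adjusted p = 0.463). The single high control was control 2. The probes of *Pax6* and *Foxe3* were detected on no array, and those of *Maf* and *Pitx3* on 1 control each, so these arrays give no level for them in mutants.

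*Krt14*, the keratin of basal epithelial cells and of the surface ectoderm, had log2 signals of 8.79, 8.64, 8.86 and 8.75 in mutants 1, 3, 4 and 5, against 10.87, 10.25 and 10.38 in controls 2, 3 and 5. The mutants were tightly grouped, and the gene fell by 1.74 ± 0.18 (adjusted p = 0.0137). It was the only call among the 21 detected genes of surface ectoderm and corneal epithelium, whose median was −0.05, and 0.14 without control 2. *Krt17*, with a fold change of −1.44 ± 0.42, did not pass the test (adjusted p = 0.354), and its size rested on control 2, without which it was −0.85. *Krt5* (−0.89, adjusted p = 0.344) and *Krt15* (−0.75, adjusted p = 0.376) did not pass either.

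A second group of lower genes encodes collagens and other matrix proteins of mesenchyme. Of the 24 detected genes on this list 7 fell (*Dcn*, *Ogn*, *Thbs2*, *Col6a1*, *Col1a1*, *Fbln2* and *Col6a2*) and 0 rose. Their median was −0.91, and −0.92 without control 2, against 0.05 over all genes. In 16 of the 24 all mutants lay below all controls, which was so for 6.75% of all genes. The sum of the 4 periocular mesenchyme markers with a probe (*Col1a1*, *Foxc1*, *Twist1* and *Prrx1*) was 1109 to 1943 linear units in mutants, against 4466, 3047 and 3612 in controls 2, 3 and 5. Whether the share of mesenchyme in the dissected tissue differed was not tested.

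*Dcn*, for the proteoglycan decorin that binds collagen fibrils, had log2 signals of 7.14, 8.09, 7.02 and 7.14 in mutants 1, 3, 4 and 5, against 11.12, 9.79 and 9.52 in controls 2, 3 and 5. It fell by 2.80 ± 0.41 (adjusted p = 0.0602), and mutant 3 was the highest mutant and control 2 the highest control. *Ogn*, for the related proteoglycan osteoglycin, fell by 2.17 ± 0.32 (adjusted p = 0.0617). *Thbs2*, for the matrix protein thrombospondin 2, had 5.41, 5.30, 4.77 and 5.78 in mutants, against 7.45, 7.32 and 7.54 in controls 2, 3 and 5. Here control 2 lay with the other controls, and the decrease was 2.12 ± 0.23 (adjusted p = 0.0172).

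The genes *Col6a1* and *Col6a2*, for chains of the beaded-filament collagen VI, fell by 1.89 ± 0.24 (adjusted p = 0.0293) and 1.48 ± 0.20 (adjusted p = 0.0438). *Col1a1*, for the main fibrillar collagen, had log2 signals of 9.28, 9.03, 8.73 and 9.26 in mutants 1, 3, 4 and 5, against 11.35, 10.34 and 10.93 in controls 2, 3 and 5 (log2 fold change −1.80 ± 0.25, adjusted p = 0.0494). *Fbln2*, for fibulin 2, fell by 1.51 ± 0.23 (adjusted p = 0.0688). *Lum*, for the corneal proteoglycan lumican, had 7.81, 7.54, 6.24 and 7.75 in mutants, against 7.64, 10.27 and 10.62 in controls 2, 3 and 5. Control 2 was at the level of the mutants, and *Lum* did not pass the test (log2 fold change −2.17, and −3.11 without control 2). *Col3a1* (−1.09, adjusted p = 0.214) and *Col5a1* (−0.99, adjusted p = 0.146) did not pass either.

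Of 18 detected transcription factors of periocular mesenchyme only *Osr2* fell, with log2 signals of 8.69, 8.27, 8.28 and 8.80 in mutants 1, 3, 4 and 5, against 10.25, 9.89 and 10.17 in controls 2, 3 and 5 (−1.59 ± 0.19, adjusted p = 0.0237). It is known as a factor of palate and eyelid mesenchyme. The median of the list was −0.44, and −0.20 without control 2. *Foxc1*, needed for the anterior segment of the eye, had 6.64, 6.48, 5.62 and 6.89 in mutants, against 6.61, 7.92 and 8.09 in controls 2, 3 and 5. Control 2 again lay with the mutants, and the gene did not pass the test (adjusted p = 0.435). *Twist2* (−1.23, adjusted p = 0.241) did not pass.

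*Cxcl14*, for a chemokine of epithelium and mesenchyme, fell by 1.86 ± 0.23 (adjusted p = 0.0293), and *Avpr1a*, for a vasopressin receptor, fell by 1.77 ± 0.26 (adjusted p = 0.0659). A further 25 named genes fell by 0.86 to 1.55 on the log2 scale. Among them, chosen after their values were seen, were *Nfib*, a transcription factor gene with 8.89, 8.89, 8.69 and 8.95 in mutants, against 10.28, 10.18 and 10.31 in controls 2, 3 and 5 (−1.40 ± 0.13, adjusted p = 0.0106), and *Itga11*, for a collagen receptor (−1.18 ± 0.17, adjusted p = 0.0535). In both the controls, control 2 included, lay close together. The others included the collagen genes *Col8a2*, *Col16a1* and *Col17a1*, *Ctsk* for a collagen-degrading protease, *Tgfbr2* for the type II TGFβ receptor and *Aqp1* for a water channel.

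**Figure D2:**
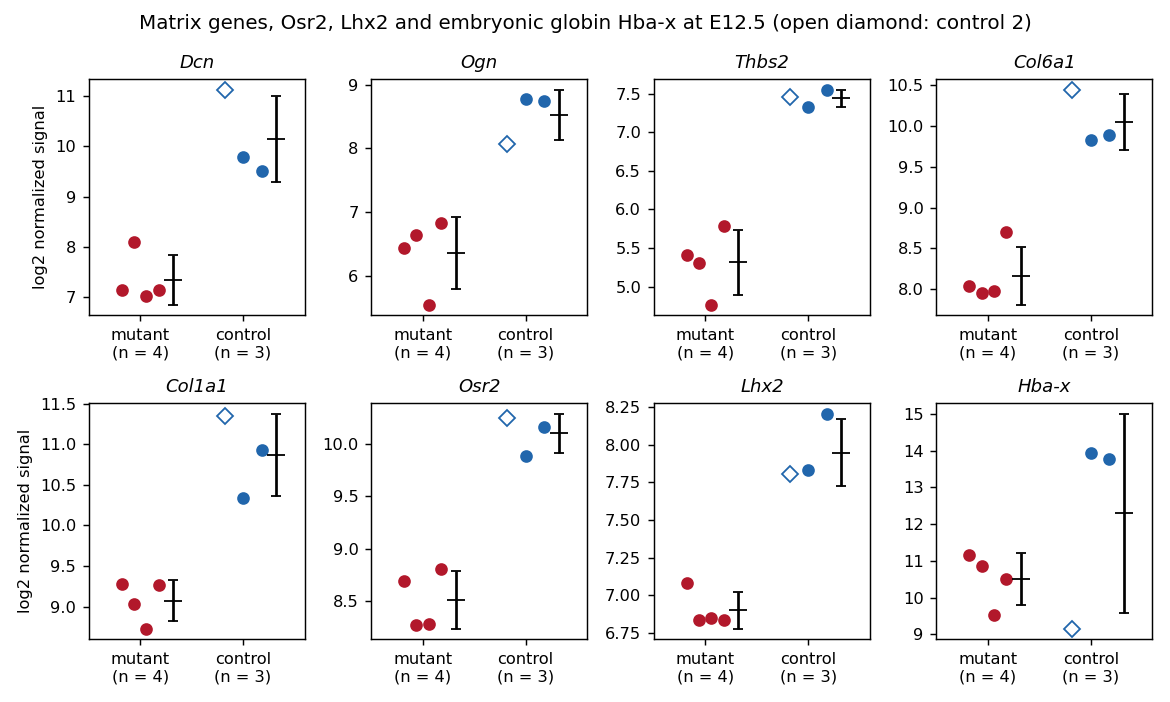
Log2 normalized signal of *Dcn*, *Ogn*, *Thbs2*, *Col6a1*, *Col1a1*, *Osr2*, *Lhx2* and *Hba-x* at E12.5 in mutants (red, n = 4) and controls (blue, n = 3). Each point is an array, the open diamond is control 2, and the bars show the mean ± SD. In all panels but that of *Hba-x*, where control 2 had 9.16, every mutant lay below every control.

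Muscle, vessel and blood genes gave few calls, and several of their lists moved with control 2. Among 17 detected skeletal muscle genes *Mylpf*, for a light chain of fast muscle myosin, fell by 1.56 ± 0.25 (adjusted p = 0.0797). The median of this list was −0.64, and −0.28 without control 2. None of the 18 detected endothelial genes passed the test, and their median was −0.38. At an unadjusted p under 0.05, 6 were lower and 0 higher (7.61% and 9.6% of all genes were). Without control 2 the median of the list was −0.27, and 7 of its genes were called lower and 1 higher (19.3% and 20.3% of all genes were). *Tek*, for the angiopoietin receptor, was lower by −1.07 ± 0.19 without passing (adjusted p = 0.11). *F13a1*, for coagulation factor XIII that tissue macrophages make, fell by 1.20 ± 0.19 (adjusted p = 0.0754). It was the only call among 14 detected macrophage and leukocyte genes. Without control 2, 9 genes of that list were called lower and 1 higher, against 19.3% and 20.3% of all genes.

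The embryonic globin gene *Hba-x* had log2 signals of 11.15, 10.86, 9.52 and 10.52 in mutants 1, 3, 4 and 5, against 9.16, 13.93 and 13.78 in controls 2, 3 and 5. Control 2 lay below all mutants and controls 3 and 5 well above them. The gene did not pass the test (log2 fold change −1.78 ± 1.05, adjusted p = 0.653). *Alas2*, for the first enzyme of heme synthesis in red cells, had 6.73, 6.78, 5.82 and 6.70 in mutants, against 6.14, 10.20 and 9.84 in controls 2, 3 and 5. None of the 9 detected erythroid genes passed the test in all 7 arrays, with 4 lower at an unadjusted p under 0.05 (7.61% of all genes were). All 9 were called lower without control 2 (19.3% of all genes were). Their median was −0.69 with control 2 and −1.80 without it. Erythroid transcripts thus varied within the control group, and their part in the other results was not tested.

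The 9 genes called higher in mutants changed by 0.80 to 1.43 on the log2 scale. *Fgf8*, for a growth factor of the midline forebrain and the optic stalk, had log2 signals of 8.0, 8.15, 8.43 and 7.79 in mutants 1, 3, 4 and 5, against 6.82, 6.57 and 6.60 in controls 2, 3 and 5. All mutants lay above all controls, and it rose by 1.43 ± 0.18 (adjusted p = 0.0293). *Metrn*, for the secreted neural factor meteorin, had 11.80, 11.68, 11.85 and 11.52 in mutants, against 10.14, 10.37 and 10.52 in controls 2, 3 and 5 (1.37 ± 0.16, adjusted p = 0.0211). *Hoxb1*, a gene of the hindbrain, was detected in all 4 mutants and in no control and was at least 1.18-fold higher (adjusted p = 0.0438), with signals near background in both genotypes. *Pdpn*, for the membrane glycoprotein podoplanin, had 11.77, 11.87, 11.91 and 11.77 in mutants, against 10.99, 11.05 and 11.05 in controls 2, 3 and 5 (0.80 ± 0.13, adjusted p = 0.0797). The values within each genotype lay close together. The others were *Qrfprl* (1.12 ± 0.17, adjusted p = 0.0688), *Dhrs4* (0.90 ± 0.13, adjusted p = 0.0626), *1700067K01Rik* (at least 1.33-fold, adjusted p = 0.0719), *Gp5* (0.81 ± 0.13, adjusted p = 0.095) and *Nr6a1* (0.81 ± 0.14, adjusted p = 0.0962).

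Genes of the ventral forebrain and hypothalamus were high in the mutants as a list. Of 9 detected genes *Fgf8* alone passed the test, 6 were higher at an unadjusted p under 0.05 (9.6% of all genes were), and in 6 all mutants lay above all controls (9.5% of all genes). The median was 0.89, and 0.82 without control 2, where 7 genes of the list were called higher (20.3% of all genes were). *Shh*, for the ventral patterning signal Sonic hedgehog, had log2 signals of 9.59, 9.51, 9.52 and 9.35 in mutants 1, 3, 4 and 5, against 7.22, 8.46 and 8.34 in controls 2, 3 and 5. The groups did not overlap, control 2 was the lowest, and the difference of 1.49 ± 0.28 did not pass the test (adjusted p = 0.146). Without control 2 the difference was 1.09 and passed (limma, adjusted p = 0.00233). *Nkx2-2*, a target of Sonic hedgehog, had 8.80, 8.89, 9.43 and 8.80 in mutants, against 7.52, 7.72 and 8.17 in controls 2, 3 and 5 (1.18 ± 0.22, adjusted p = 0.144). *Nkx2-1*, which marks the hypothalamus and ventral telencephalon, had 8.98, 8.55, 8.85 and 8.11 in mutants, against 7.49, 7.59 and 7.96 in controls 2, 3 and 5 (0.94 ± 0.23, adjusted p = 0.267). *Foxa2*, a floor plate factor, was detected in all 4 mutants and in no control and did not pass (at least 1.54-fold higher, adjusted p = 0.17). The summed linear signal of the 3 ventral forebrain markers was 1376 to 1885 in mutants, against 512, 754 and 864 in controls 2, 3 and 5. Whether more brain was dissected with the mutant eyes was not tested.

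Dorsal telencephalon genes had a median of −0.72 over 9 detected genes, and 0 passed. At an unadjusted p under 0.05, 4 were lower and 1 was higher (7.61% and 9.6% of all genes were). *Tbr1*, of early cortical neurons, had log2 signals of 6.88, 6.37, 6.33 and 6.55 in mutants 1, 3, 4 and 5, against 6.92, 8.01 and 8.58 in controls 2, 3 and 5 (−1.31 ± 0.35, adjusted p = 0.316). Control 2 lay next to the mutants. *Lhx9* (−1.25, adjusted p = 0.344) and *Eomes* (−0.83, adjusted p = 0.245) did not pass. *Wnt7b*, the higher gene of this list, did not pass either (0.91, adjusted p = 0.378). Without control 2 the median of this list was 0.08.

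**Figure D3:**
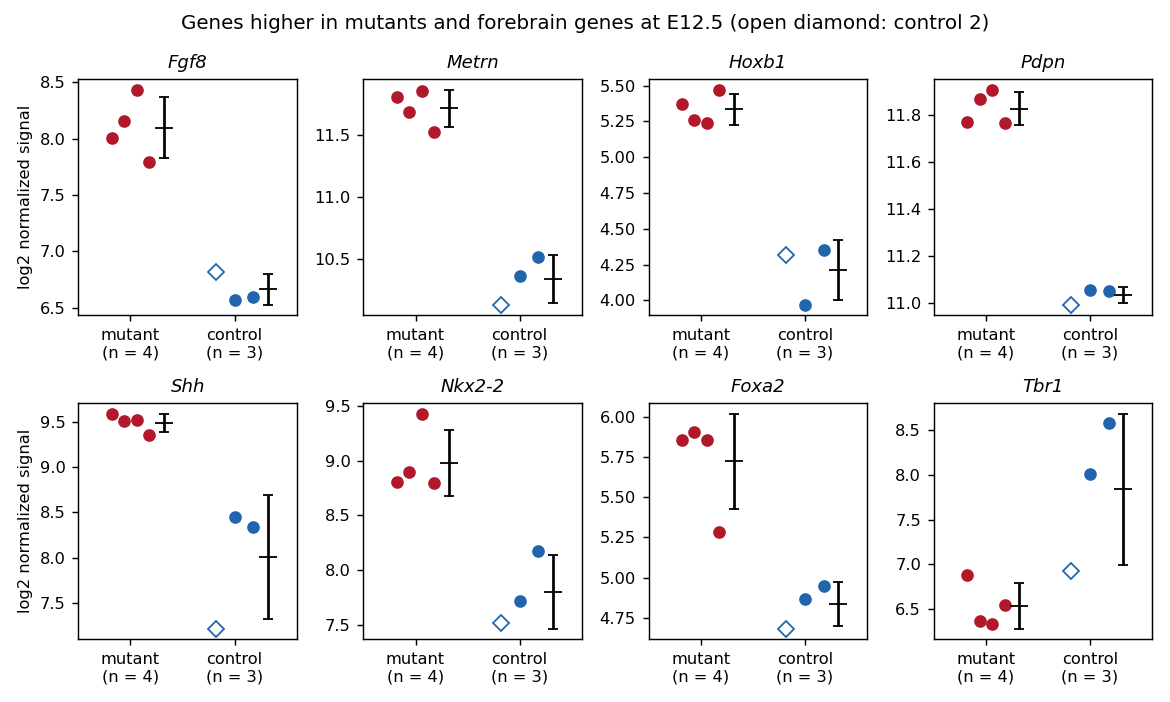
Log2 normalized signal of *Fgf8*, *Metrn*, *Hoxb1* and *Pdpn*, which were called higher in mutants, and of the forebrain genes *Shh*, *Nkx2-2*, *Foxa2* and *Tbr1*, which did not pass the test, at E12.5. Mutants are red (n = 4), controls blue (n = 3), each point is an array, the open diamond is control 2, and the bars show the mean ± SD. All mutants lay above all controls in all panels but that of *Tbr1*, where all mutants lay below the lowest control, control 2, at 6.92.

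In contrast to the lens genes, those of the optic cup gave 1 call. *Lhx2*, a factor needed for the optic cup and also made by the forebrain, had log2 signals of 7.08, 6.83, 6.85 and 6.83 in mutants 1, 3, 4 and 5, against 7.80, 7.83 and 8.21 in controls 2, 3 and 5, and fell by 1.05 ± 0.16 (adjusted p = 0.0662). The other 14 of 15 detected eye field and optic cup factors did not pass, and the median of the list was 0.27, and 0.14 without control 2. *Otx2*, for pigment epithelium and forebrain, had log2 signals of 9.61 to 10.47 in mutants, against 9.98 to 10.30 in controls (−0.04 ± 0.22, adjusted p = 0.981). For *Rax*, a retinal progenitor factor, all 4 mutants and 1 control were detected (0.31 ± 0.15, adjusted p = 0.562). *Sox2* had 8.03, 7.48, 7.41 and 7.29 in mutants, against 5.76, 7.41 and 8.57 in controls 2, 3 and 5. Its controls spread on both sides of the mutants (adjusted p = 0.922).

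No gene was called on the lists of Notch pathway and proneural genes, of retinal ganglion cells and early neurons, of DNA replication and mitosis, or of apoptosis. The counts below stand beside 9.6% of all genes higher and 7.61% lower at an unadjusted p under 0.05. Without control 2, 20.3% of all genes were called higher and 19.3% lower. Of 20 detected Notch pathway and proneural genes 6 were higher and 1 was lower at an unadjusted p under 0.05. The median of the list was 0.40 (0.24 without control 2, where 7 genes were called higher and 3 lower). *Hes5*, a Notch target of neural progenitors, had log2 signals of 9.95, 9.68, 9.93 and 9.32 in mutants 1, 3, 4 and 5, against 7.68, 8.76 and 9.42 in controls 2, 3 and 5, so that 1 mutant overlapped the controls (1.10 ± 0.37, adjusted p = 0.4). Genes of retinal ganglion cells and early neurons had a median of 0.05 over 23 detected genes (−0.04 without control 2), and 3 were higher and 1 was lower at an unadjusted p under 0.05. Of 25 detected genes of DNA replication and mitosis 8 were higher and 0 lower at an unadjusted p under 0.05. Their median of 0.28 changed to −0.02 without control 2, where 7 were called higher and 8 lower. *E2f1*, a factor of entry into S phase, had 10.46, 10.41, 10.75 and 10.53 in mutants, against 9.86, 9.67 and 9.72 in controls 2, 3 and 5 without passing (0.79 ± 0.14, adjusted p = 0.135). Of 20 detected apoptosis and p53 target genes none passed, with 3 higher and 2 lower at an unadjusted p under 0.05.

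The Hox genes, which pattern the hindbrain and trunk and should be scarce around the eye, had a median of 1.17 over 7 detected genes on their list. *Hoxb2* had log2 signals of 6.73, 8.28, 7.60 and 8.07 in mutants 1, 3, 4 and 5, against 6.21, 6.46 and 5.60 in controls 2, 3 and 5 (1.58 ± 0.37, adjusted p = 0.236). *Hoxb5* had 7.29, 9.34, 8.26 and 7.09 in mutants, against 6.42, 8.29 and 4.83 in controls 2, 3 and 5 (adjusted p = 0.61). *Hoxb5* varied by more than 2 log2 units within both genotypes, and whether tissue from behind the head was carried along was not tested. Of the 5 detected H3.2 histone genes 0 passed, 2 were lower at an unadjusted p under 0.05 (7.61% of all genes were), and the median was −0.33.

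The stages on either side were then compared. The tissue was the head in the earliest samples, the eye region in the middle ones and the eye in the latest, so age and tissue cannot be told apart, and genes selected by their difference at E12.5 have a large value there by choice. The 12 lens genes called lower at E12.5 had, by the probe with the smallest p, a median measured log2 fold change of −0.22 in heads of E11.5, −3.25 in the eye region of E12.5 and −8.63 in eyes of E13.5. No mutant was above background for 8 of the 12 (E11.5), 7 (E12.5) and 8 (E13.5), and no control for 5 (E11.5), so these differences are limited by the background and do not give the size of the decrease. None was called at E11.5, where 0.02% of genes were called lower and 0.0801% higher, and all 12 were called lower at E13.5, where 1.37% of genes were. As an interaction in a limma model of all groups, the measured difference was more negative at E12.5 than at E11.5 for 11 of them (0.639% of genes) and at E13.5 than at E12.5 for all 12 (1.65% of genes). Both changes passed for all 5 genes that at least 1 mutant of E12.5 detected. *Cryba1* had log2 fold changes of −0.80 at E11.5, then −4.48 at E12.5, then −9.00 at E13.5, and *Mip* had −0.29, −3.25 and −7.90 at these stages. *Lim2* and *Crygs*, which had not passed at E12.5, were lower by −6.09 (adjusted p = 1.43e-05) and −5.58 (adjusted p = 4.96e-05) at E13.5.

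The 42 other lower genes did not follow the lens genes. Their median was 0.07 at E11.5, fell to −1.38 at E12.5 and was 0.24 at E13.5. At E13.5 only 9 of the 42 were below 0, where 58.5% of all detected genes were, and none was called lower. In the interaction test the difference was more negative at E12.5 than at E11.5 for 27 genes (0.639% of all genes passed in this direction). It was more negative at E12.5 than at E13.5 for 30 genes (1.51% of all). These genes were chosen by their value at E12.5, which enters both contrasts, so the shares are no test of the pattern. *Dcn* had log2 fold changes of −0.01 (E11.5), −2.80 (E12.5) and 0.22 (E13.5), and *Krt14* had 0.68, −1.74 and 0.66. *Col1a1* had 0.24, −1.80 and 0.73. *Nfib* was the single gene called in the opposite direction at E13.5, with 0.84 (adjusted p = 0.0378). The matrix list had a median of −0.91 at the middle stage, against 0.16 in E13.5 eyes, and the ventral forebrain list 0.89, against 0.15.

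The 9 genes higher at E12.5 had a median of 0.05 (E11.5), 0.90 (E12.5) and −0.14 (E13.5), and 1 of them was above 0 at E13.5. For 3 (*Fgf8*, *Metrn* and *Hoxb1*) the interaction test passed for a more positive difference at E12.5 than at E11.5 (0.216% of all genes) and for a more negative one at E13.5 than at E12.5 (1.65% of all). The 9 genes too were chosen by their value at E12.5, which enters both contrasts, so these shares are no test either. *Fgf8* had log2 fold changes of 0.05 (E11.5), 1.43 (E12.5) and −0.36 (E13.5).

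**Figure D4:**
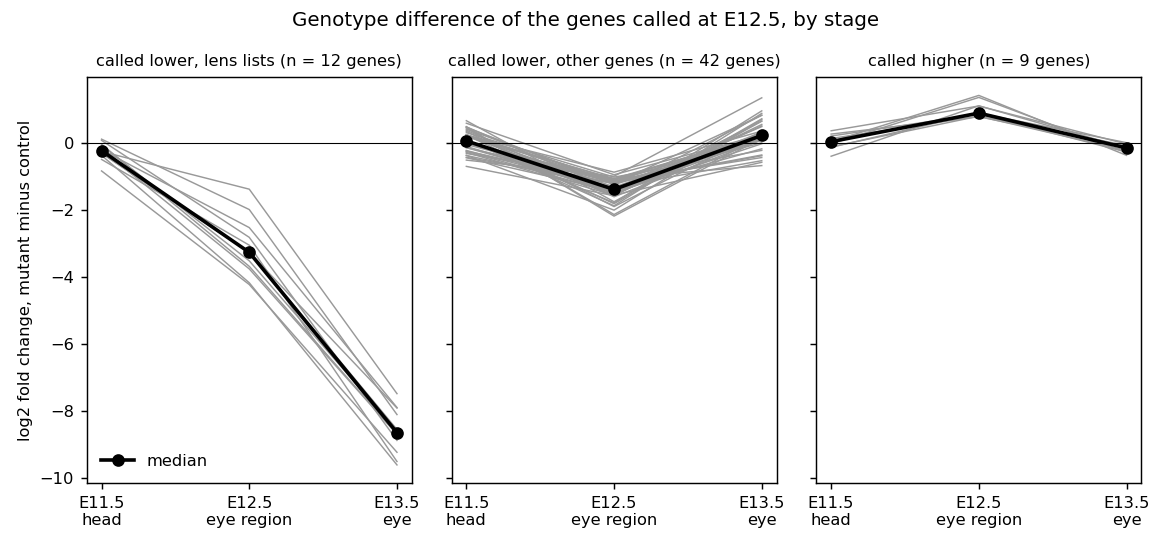
Log2 fold change (mutant minus control) of the genes called at E12.5 over the 3 stages, in panels for the 12 lower lens genes, the 42 other lower genes and the 9 higher genes. Each line is a gene and the black line is the median, which was −0.22, −3.25 and −8.63 for the lens genes (limited by the background in mutants), 0.07, −1.38 and 0.24 for the other lower genes and 0.05, 0.90 and −0.14 for the higher genes.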

How the data were processed

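RNA of the eye region of *Aey69* mutants and wild-type littermates at E12.5 was compared, and samples were grouped by title. The line carries a further mutation, which is not reported here and whose effects cannot be told apart from those of the histone mutation. The files deposited by the authors hold linear signal intensity after background subtraction in GenomeStudio (−21 to 28964), with a detection p-value (deposited per probe and array), and a processed intensity table, quantile-normalized by the authors after an offset. For the present comparison 22 was added to each signal of 36 arrays, the arrays were quantile-normalized together, and log2 was taken of the deposited values so treated. The 4 excluded arrays entered only alternatives. Array numbers are those of the signal columns. Mutants and controls were compared with limma 3.58.1 (lmFit and eBayes, R 4.3.3) on the 7 samples, with Benjamini-Hochberg adjustment over 25697 probes. Calls required an adjusted p under 0.1 and, as a filter after the fit, detection of the probe (p under 0.05) on 3 of 4 mutant or 2 of 3 control arrays. Between 44.6% and 54.9% of probes were above background per array, and precision is limited by how many arrays there are. Each gene counted 1 time if any probe passed, a probe without a name counted as a gene, and the brightest probe stands for a gene elsewhere. All 17 called genes with several probes were called by their brightest one. Folds of a probe that no array of a genotype detected are bounds against the lowest signal of detected probes (means of log2 values). Since the offset is part of each value, fold changes understate those of dim probes.

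Changes between stages were interactions in 1 limma model of 10 groups. Named were all genes called higher, the 20 lower genes with the largest fold change, up to 4 members of each list with the smallest p and every called member, and a set of fixed eye, brain and histone genes. The lists and members were chosen with earlier results of these data known, and several lists hold genes that the study picked from these samples, so their direction is not independent evidence. No set test was made. On simulated data for this comparison (25697 probes, 200 changed), 53% of changes of 1 log2 unit and 86% of changes of 2 log2 units were recovered, with 13 and 16 false calls. The simulated noise was independent between probes, so no simulated array stood apart as a whole, as control 2 did. These rates may therefore not hold for the real arrays. Alternatives covered scaling, offset, the authors' table, the model, array weights, the excluded control, the filter, a replicate block and leaving out each array. If embryos were pooled or related, p-values measure only the spread between these samples.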

Additional observations from a re-analysis of the deposited data

Results flagged for a closer look

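The gap test given here covers named genes that were called at E12.5 or in the fixed set, and it flags about 1 in 20 groups by chance. The flags were not adjusted for the number of groups tested. In 4 genes of this set 1 mutant was flagged, because its gap to the next was large relative to the range of the mutants. These were *Col6a1* in mutant 5 (log2 signal 8.70), *Dcn* in mutant 3 (8.09), *Lhx2* in mutant 1 (7.08) and *Pitx3* in mutant 1 (4.38, where the probe was not above background). For *Lhx2* the gap was small in size, as the other 3 mutants had 6.83 to 6.85. In *Col6a1*, *Dcn* and *Lhx2* all 4 mutants still lay below all controls.

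The interaction test was also read for named genes that were called at E12.5 or in the fixed set. For the following of these the genotype difference changed between stages, given as a difference of log2 fold changes. The tissue taken differed between the stages and cannot be told apart from age. For *Cryaa*, *Crybb1*, *Cryga*, *Crygb*, *Crygc*, *Crygd* and *Crygn* no mutant of E12.5 was above background, and for *Hoxb1* no control, so their values are measured differences limited by the background and not sizes of change. Among lens genes the difference at E12.5 minus that at E11.5 was negative for *Cryaa* (−2.96), *Cryba1* (−3.68), *Cryba2* (−3.80), *Cryba4* (−3.45), *Crybb1* (−3.64), *Crybb3* (−3.56), *Cryga* (−2.89), *Crygb* (−2.10), *Crygd* (−2.56), *Crygn* (−2.48) and *Mip* (−2.96). The difference at E13.5 minus that at E12.5 was negative again for *Cryaa* (−5.29), *Cryba1* (−4.52), *Cryba2* (−5.44), *Cryba4* (−5.08), *Crybb1* (−5.01), *Crybb3* (−4.94), *Cryga* (−6.06), *Crygb* (−6.12), *Crygc* (−6.10), *Crygd* (−6.46), *Crygn* (−4.95) and *Mip* (−4.65).

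Among the other lower genes the change from E11.5 to E12.5 was negative for *Avpr1a* (−1.89), *Col6a1* (−2.25), *Col6a2* (−1.73), *Cxcl14* (−1.97), *Dcn* (−2.79), *Fbln2* (−1.77), *Krt14* (−2.42), *Ogn* (−2.67), *Osr2* (−1.99) and *Thbs2* (−2.58). The change from E12.5 to E13.5 was positive for *Avpr1a* (2.74), *Col1a1* (2.53), *Col6a1* (2.24), *Col6a2* (2.00), *Cxcl14* (2.76), *Dcn* (3.01), *F13a1* (2.04), *Fbln2* (1.80), *Krt14* (2.40), *Ogn* (2.33), *Osr2* (1.69) and *Thbs2* (2.36). Among the higher genes the change from E11.5 to E12.5 was positive for *Fgf8* (1.38), *Hoxb1* (1.51) and *Metrn* (1.39), and that from E12.5 to E13.5 negative for *Fgf8* (−1.79), *Hoxb1* (−1.26) and *Metrn* (−1.64).

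The remaining changes in this set were in genes that did not pass the test at E12.5. *Erdr1* changed by 5.41 from E11.5 to E12.5 and by −3.48 from E12.5 to E13.5, with log2 fold changes of −4.45, 0.96 and −2.52 at the 3 stages. *Prox1* changed by −2.24 and *Rax* by −1.21 from E12.5 to E13.5. Other named genes of the lists that did not pass at E12.5 also changed and are not listed in full. Among them were *Lim2* (−5.29, with no mutant of E12.5 above background) and *Krt17* (2.95) from E12.5 to E13.5. *Hoxb2* changed by 2.50 from E11.5 to E12.5.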

How the results depend on the processing

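The 63 calls (9 higher and 54 lower) depended on single arrays and on how the spread was estimated. With 1 array left out there were 11 to 4005 calls (a gene with probes in both directions counts in each direction, and 1 time in the total), 0 to 2093 of them higher and 10 to 1989 lower. Without control 2 there were 4005 calls, and without mutant 1, 3, 4 or 5 or control 3 or 5 there were 11, 12, 22, 22, 25 and 11. Arrays scaled to the same median gave 40 calls (3 higher). An offset larger by 50 gave 255 (122 higher and 133 lower), 1 model with all 10 groups 490 (223 and 267), array weights 4104 (2246 and 1936), adjustment over detected probes only 169 (49 and 120), and an unadjusted p under 0.05 1796 (1004 and 796). With the excluded control added to the controls, 6 genes were called (1 higher and 5 lower), and 0 crystallin genes. The genes whose difference changed from E11.5 to E12.5 numbered 91, but 3 with the 4 excluded samples, and those from E12.5 to E13.5 354, but 46. The causes were not tested. Quantile normalization after log2 or of the 7 arrays alone, the authors' table and no detection filter kept each count within 1.5 times. No called gene recomputed under the alternatives changed direction, while *Otx2*, *Sox2*, *Six3*, *Bmpr1a*, *Pitx3* and *Foxe3*, which did not pass, did under at least 1 (without control 2 *Otx2* had 0.04 and *Sox2* −0.43).

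Whether samples of the same replicate number form pairs is not known. In the authors' table, deviations of same-numbered samples correlated at −0.35, 0.01 and −0.55, and by the numbers of the signal columns at 0.01 and 0.30. With only 3 controls, of which control 2 stood apart, these correlations cannot decide it. A replicate block, added after seeing the data in these 2 forms, gave 3 calls (0 higher and 3 lower) on the authors' table, where mutant 4 of the titles has no partner. By the column numbers it gave 2953 (1423 and 1573). In that fit only numbers 3 and 5 are shared, so the other arrays carry no weight and 1 residual degree of freedom remains.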

Other observations

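The control of E12.5 that the submitters excluded (array 4) was normalized with the 36 other arrays and set beside the genes called without it. Of the 12 lower lens genes, it lay within the range of the mutants for 6, beyond them for 2 and between the genotypes for 4. *Cryba1* had a log2 signal of 6.04 in it and *Cryaa* 4.93. Of the 42 other lower genes, it lay within the mutants for 12, beyond them for 5, between the genotypes for 21, within the controls for 3 and beyond the controls for 1. *Thbs2* had 6.80 in it and *Krt14* 8.38. Of the 9 higher genes, it lay within the mutants for 4 (*Fgf8* had 7.97), beyond them for 1, between the genotypes for 3 and within the controls for 1. Its *Hba-x* signal, 8.41, was below those of the 7 other arrays of the stage.

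*Eif2s3y*, a gene of the Y chromosome, had log2 signals of 3.67, 7.0, 8.40 and 3.69 in mutants 1, 3, 4 and 5, against 7.90, 4.31 and 4.35 in controls 2, 3 and 5. Control 2 therefore differed from the other controls in this gene as well as in the globins, but mutants 3 and 4 were high in it too. The gene thus varied within both genotypes, and embryo sex was not part of the fits.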
